A study of Mus musculus with 16 samples.

Results

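Mitosis and spindle genes are described across proliferating and differentiated C2C12 cells with and without the miR-1 and miR-206 microRNAs. The set holds 41 genes, chosen by name from the deposited expression table, which lists 35275 genes. All 41 were found in it, and all 41 were among the 11832 genes that passed the filter on low values (a mean over the 16 libraries of at least 0.5 FPKM, which are fragments counted per kilobase of a gene and corrected for sequencing depth). Each member's mean was also above 0.5 FPKM in each of the 4 groups.

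C2C12 is a mouse muscle precursor line whose cells stop dividing and fuse in low serum, and the cells used were the ones the labels call PAX7 NEG. Control cells carried the wild-type genotype and came as 2 populations, population 1 and population 2, while the knockout (tKO) cells lacked miR-206 together with both miR-1a genes (miR-1a-1 and miR-1a-2) and came as 2 clones, clone 1 and clone 2. Poly(A) RNA was sequenced from each line in growth medium with 20% fetal bovine serum at subconfluence (GM) and 3 days after the change to 2% horse serum (DM3). Each line was sampled as replicates BR1 and BR2, called cultures 1 and 2, so that each of the 4 groups (control and tKO in GM, control and tKO in DM3) has 4 libraries. The tKO is therefore known from 2 clones of 1 cell line. Every tKO line was a clone and every control line a population, so genotype and cloning cannot be told apart in these comparisons. The labels do not say whether the cultures were grown separately, so p-values measure the spread between these libraries, which may be partly technical.

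During mitosis the kinase Cdk1, bound to a cyclin, drives the cell into division, and spindle microtubules attach to chromosomes at their kinetochores. A checkpoint holds the cell until every kinetochore is attached, after which the anaphase-promoting complex with its activator Cdc20 marks cyclin B and securin for destruction, and motors and scaffolds of the midzone split the cell. Most of these genes are transcribed late in the cell cycle and are kept off in cells that have left it, as myoblasts do before they fuse. In these bulk libraries, fewer dividing cells and less message per cell cannot be told apart.

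Mitotic gene expression fell during differentiation in both genotypes. In control cells 39 of the 41 members had lower levels in DM3 than in GM at an adjusted p under 0.05, which is what called means below (limma on log2(FPKM + 1), two-sided, adjusted over all tested genes), none had higher levels, and 38.3% of all tested genes were lower by the same rule. In tKO cells 40 of 41 were lower, against a background of 36% of tested genes. The median log2 change of the members was -1.65 in control cells and -1.83 in tKO cells, where the median over all tested genes was -0.15 and -0.12. At or below the members' median lay 3.64% of all tested genes in control cells and 2.47% in tKO cells. The median member kept 30.0% of its GM level in control DM3 and 25.5% in tKO DM3.

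Levels also separated library by library. For 39 members every control DM3 library lay below every control GM library, which held for 39.8% of tested genes, and the exceptions were Cdc25b and Pttg1. In tKO cells 35 members separated in this way, beside 29.8% of tested genes. The 6 whose tKO ranges overlapped between stages were Cdc25b, Pttg1, Ccnb2, Cenpa, Bub1b and Cdc25c, named after their values were seen. The stage comparisons of control and tKO cells use different libraries, and the genotype comparisons reuse the same ones.

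Some calls needed the libraries of both lines. With population 2 alone 33 members were called lower in control cells, and with population 1 alone 31 were, beside 23.4% and 26% of tested genes. Ccnb2, Cdc25c, Cks2, Cdc20, Ube2c and Cenpa lost their call in both cases, and Kif20a and Hmmr without population 2. Their log2 changes in the fits that lost the call were all below 0, from -0.56 (Cks2) to -1.615 (Cdc20). In tKO cells 36 were called without clone 1, beside 31.6% of tested genes, where Ccnb2, Cdc25c, Pttg1 and Cenpa lost theirs. The log2 changes of these genes were then still below 0, from -0.64 (Pttg1) to -1.03 (Ccnb2).

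**Figure D1:**
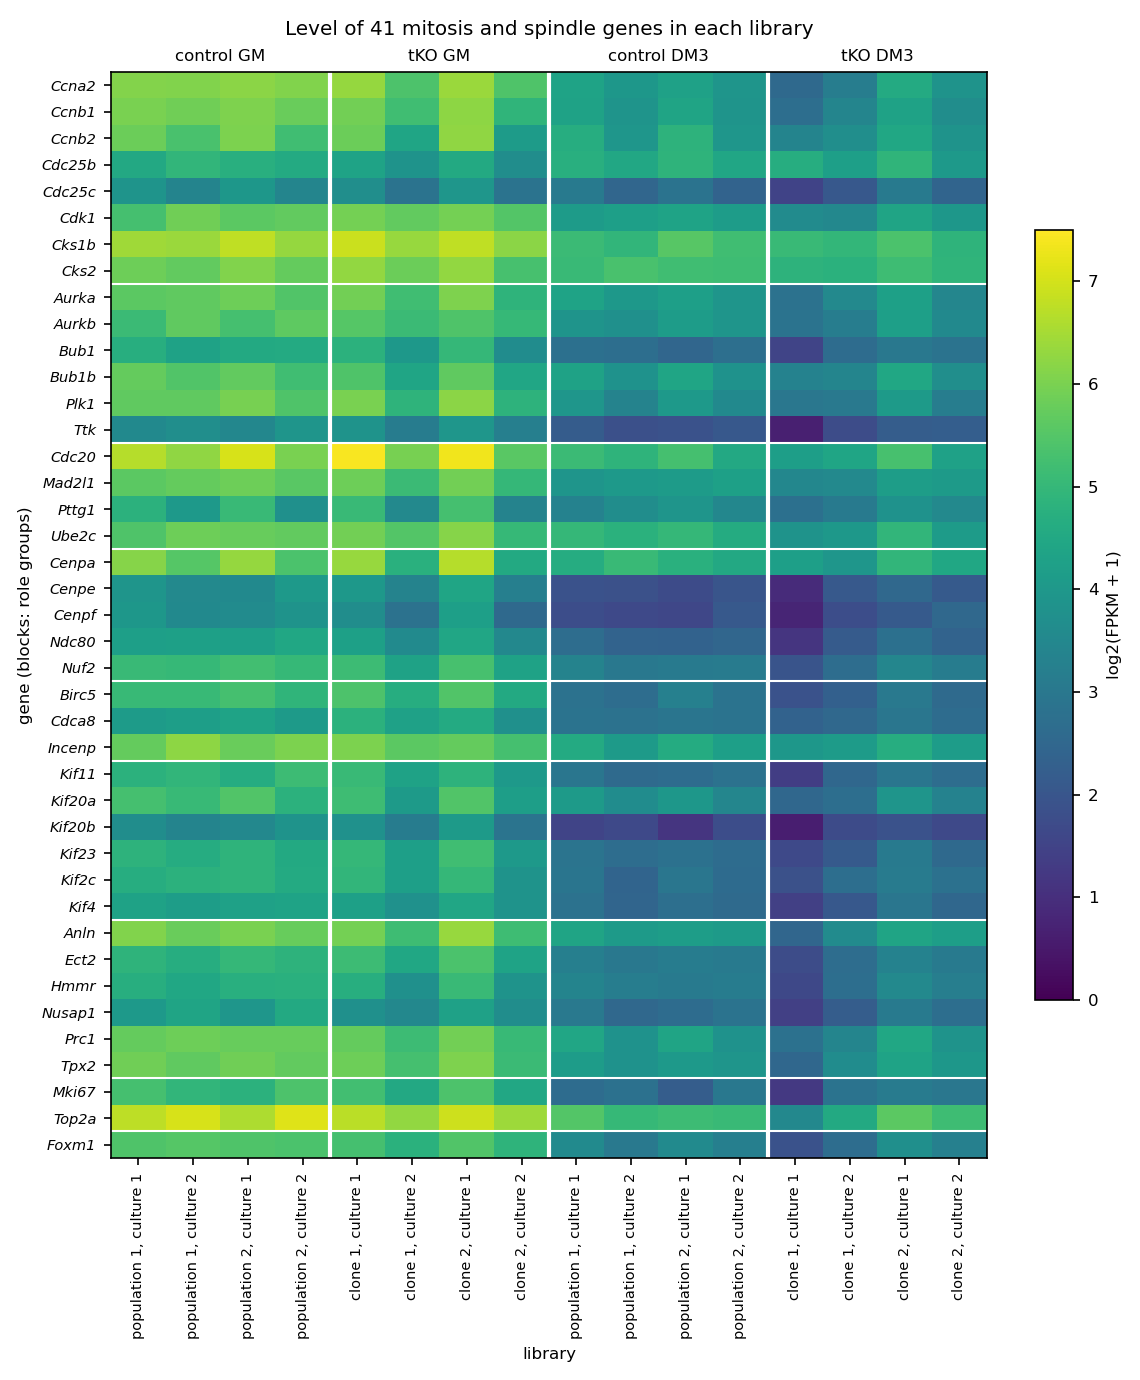
Level of the 41 genes in the 16 libraries, as log2(FPKM + 1) on a colour scale, with genes in rows grouped by role and libraries in columns grouped by genotype and stage. For 39 of the 41 genes all control DM3 libraries are below all control GM libraries. Of the 8 DM3 columns that of tKO clone 1, culture 1 is the lowest for 36 genes, a count not made over all tested genes.

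The promoters of these genes are shown because the members moved together. Mitotic promoters are known for an element called the cell cycle genes homology region (CHR), bound by the MuvB-containing complexes that repress them in resting cells and activate them before mitosis, and for CCAAT boxes, bound by NF-Y. RefSeq promoters (GRCm38.p6, 250 bases before to 50 after the start) were matched by symbol for 34 members, which gave 36 promoters. The remaining 7 were Kif20a, Tpx2, Aurkb, Incenp, Ccna2, Cdc25c and Foxm1. The letters searched on both strands were TTTGAA or TTTAAA for the CHR and CCAAT for the box, and matches of the 2 kinds can share at most 1 base. CHR letters stood in 80.6% of the members' promoters, in 19.2% of those of tested genes and in 27.6% of all RefSeq promoters of that length. CCAAT stood in 75% of the members' promoters, in 37.9% of those of tested genes and in 37.4% of all.

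Both motifs occurred in 66.7% of the members' promoters, beside 7.63% of those of tested genes and 10.7% of all. The 22 members with both had a median log2 change of -1.65 on differentiation of control cells, and the 5 with CHR letters alone (Anln, Birc5, Kif20b, Kif2c and Ndc80) had -2.01. Among the 3 with CCAAT alone (Bub1, Cdc25b and Cks2) the median was -0.64, from -1.87 to -0.06. Mad2l1, Nuf2, Nusap1 and Pttg1 had neither motif in this window, with a median of -1.54 and a range from -1.95 to -0.83. For Pttg1 the RefSeq window lay inside the deposited gene span, so the bases before the deposited start were not searched. These are descriptions of letters in a window, and no binding was measured.

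The promoters of 6 members are printed 5′ to 3′ on the gene's strand with the matched letters of either strand in capitals. The first 4 belong to genes that fell and carry both motifs, and the last 2 to the members that did not pass the test in control cells. Ccnb2 lies at chr9:70421505-70421804 (minus strand), Cdc20 at chr4:118437294-118437593 (minus), Plk1 at chr7:122159185-122159484 (plus), Mki67 at chr7:135716330-135716629 (minus), Cdc25b at chr2:131186698-131186997 (plus) and Pttg1 at chr11:43425932-43426231 (minus).
Ccnb2: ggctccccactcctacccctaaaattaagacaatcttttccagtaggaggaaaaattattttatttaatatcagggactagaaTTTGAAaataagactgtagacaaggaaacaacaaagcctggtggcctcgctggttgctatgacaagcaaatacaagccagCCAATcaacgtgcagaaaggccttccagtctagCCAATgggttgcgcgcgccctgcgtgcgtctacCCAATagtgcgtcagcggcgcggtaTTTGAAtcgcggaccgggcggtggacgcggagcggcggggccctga
Cdc20: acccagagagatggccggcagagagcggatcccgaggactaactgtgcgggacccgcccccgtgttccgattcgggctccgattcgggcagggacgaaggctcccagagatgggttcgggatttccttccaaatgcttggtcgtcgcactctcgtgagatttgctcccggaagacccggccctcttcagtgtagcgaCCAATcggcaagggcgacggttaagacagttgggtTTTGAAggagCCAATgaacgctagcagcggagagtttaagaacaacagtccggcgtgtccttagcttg
Plk1: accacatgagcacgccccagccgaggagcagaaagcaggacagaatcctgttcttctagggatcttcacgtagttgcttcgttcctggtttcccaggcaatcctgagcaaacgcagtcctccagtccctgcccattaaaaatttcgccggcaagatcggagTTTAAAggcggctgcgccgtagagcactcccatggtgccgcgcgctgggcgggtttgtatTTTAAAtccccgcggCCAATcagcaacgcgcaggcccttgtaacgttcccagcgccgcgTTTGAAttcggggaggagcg
Mki67: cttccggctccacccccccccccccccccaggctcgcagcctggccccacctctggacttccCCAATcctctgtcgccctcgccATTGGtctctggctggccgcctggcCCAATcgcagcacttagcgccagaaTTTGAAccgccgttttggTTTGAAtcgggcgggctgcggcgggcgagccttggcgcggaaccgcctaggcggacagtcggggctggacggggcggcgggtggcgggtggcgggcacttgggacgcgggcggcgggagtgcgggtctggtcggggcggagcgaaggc
Cdc25b: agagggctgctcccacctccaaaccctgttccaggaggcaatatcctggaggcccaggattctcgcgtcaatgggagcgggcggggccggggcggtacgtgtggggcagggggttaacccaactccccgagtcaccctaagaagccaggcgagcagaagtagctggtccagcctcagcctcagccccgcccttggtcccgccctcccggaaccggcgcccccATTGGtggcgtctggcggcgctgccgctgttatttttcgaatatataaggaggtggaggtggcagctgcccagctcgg
Pttg1: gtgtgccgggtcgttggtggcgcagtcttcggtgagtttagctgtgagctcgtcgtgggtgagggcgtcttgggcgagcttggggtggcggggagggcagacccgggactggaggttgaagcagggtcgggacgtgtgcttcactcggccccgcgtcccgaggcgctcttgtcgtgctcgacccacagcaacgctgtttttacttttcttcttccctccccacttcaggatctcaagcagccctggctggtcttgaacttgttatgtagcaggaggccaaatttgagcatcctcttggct
The Ccnb2 window holds 2 CHR matches and 3 CCAAT boxes, and the 3 boxes lie at positions -87, -54 and -21 from the start with the CHR match nearest to it at 5. Plk1 holds 3 CHR matches and 1 box. In the Cdc25b window the box reads ATTGG at position -28, the reverse strand of CCAAT, and no CHR letters are present. The Pttg1 window has neither, but it lies wholly inside the deposited gene span (chr11:43420250-43426251, minus strand). The bases before the deposited Pttg1 start were therefore not searched.

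The deleted microRNAs act through the seed of the mature strand (bases 2 to 8), which is in capitals in the mature miR-206 sequence from RefSeq (chr1:20679055-20679076, plus strand, GRCm38.p6).
mmu-miR-206-3p: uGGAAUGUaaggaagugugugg
In the longest annotated 3′ UTR, the site ACATTCCA was present in 3 members (Cdk1, Mad2l1 and Cenpe), or 7.32%, and in 4.46% of the 10801 tested genes with a UTR. The shorter ACATTCC without the final A was present in Kif11 and Hmmr, and CATTCCA in Birc5, Kif4, Tpx2 and Foxm1. No such site was found in 32 members, or 78.1%, and in 81.1% of tested genes. The members' UTRs were shorter, with a median of 606 bases beside 1191. The levels of the deleted microRNAs were not analysed here.

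Among the cyclins, Cdk1 and its activators, 7 of 8 members were lower in DM3 in each genotype. Values are given for cultures 1 and 2 of line 1 and then of line 2, where a line is a control population or a tKO clone. Ccna2 (cyclin A2, which partners Cdk2 and Cdk1 from S phase into mitosis; chr3:36564866-36572150) stood at 68.2, 66.6, 71.7 and 66.6 FPKM in control GM and 19.5, 14.6, 18.5 and 14.2 FPKM in control DM3. In tKO cells Ccna2 stood at 78.8, 41.4, 82.5 and 42.6 FPKM in GM and 4.87, 8.01, 23.2 and 13.5 FPKM in DM3. No DM3 library of either genotype reached a GM library of its own genotype, and the tKO libraries spread wider at both stages. Ccna2 fell by 1.98 (adjusted p = 7.49e-05) in control cells and by 2.35 (adjusted p = 1.37e-05) in tKO cells on the log2(FPKM + 1) scale, the scale of every log2 change below.

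Cks1b, a small Cdk-binding protein, had the highest mean level of this role group. Its control levels were 85.2, 81.5, 109 and 78.5 FPKM in GM and 33.5, 29.4, 45.7 and 35.5 FPKM in DM3, and its tKO levels were 118, 80.4, 109 and 72.1 FPKM in GM and 33.2, 30.2, 40.4 and 28.6 FPKM in DM3. The stages did not overlap in either genotype. Cks1b kept 40.7% of its GM mean in control and 34.9% in tKO cells. Its sister Cks2 fell with a log2 change of -0.64 in control and -0.99 in tKO cells. Cdk1, the mitotic kinase itself, measured 38.5, 58.05, 48.1 and 51.2 FPKM in control GM and 16.3, 17.9, 19.5 and 16.8 FPKM in control DM3. In tKO cells Cdk1 measured 60.2, 51.4, 60.5 and 43.8 FPKM in GM and 11.3, 10.4, 19.8 and 14.7 FPKM in DM3. All 8 DM3 libraries lay under all 8 GM libraries for Cdk1. Its log2 change was -1.41 in control and -1.90 in tKO cells, both called (adjusted p = 3.28e-06 and 1.32e-07).

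The B cyclins that activate Cdk1 fell too, from a mean of 59.7 ± 4.79 (SD, n = 4) to 16.7 ± 3.25 (SD, n = 4) FPKM for Ccnb1 and from 48.7 ± 13.2 (SD, n = 4) to 20.3 ± 7.06 (SD, n = 4) FPKM for Ccnb2 in control cells. Cdc25b and Cdc25c are phosphatases that remove the inhibitory phosphate from Cdk1. Cdc25c fell in both genotypes, by 0.96 and 1.08. Cdc25b (chr2:131186949-131198497) was the single member not called in either genotype. It read 21.8, 29.5, 25.3 and 23.1 FPKM in control GM and 25.8, 21.4, 28.3 and 20.5 FPKM in control DM3, and 19.5, 13.3, 22.7 and 11.7 FPKM in tKO GM and 24.4, 17.7, 28.9 and 15.5 FPKM in tKO DM3. Its ranges overlapped between stages in both genotypes, with log2 changes of -0.06 (SE 0.21, adjusted p = 0.83) and 0.35 (SE 0.21, adjusted p = 0.15).

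**Figure D2:**
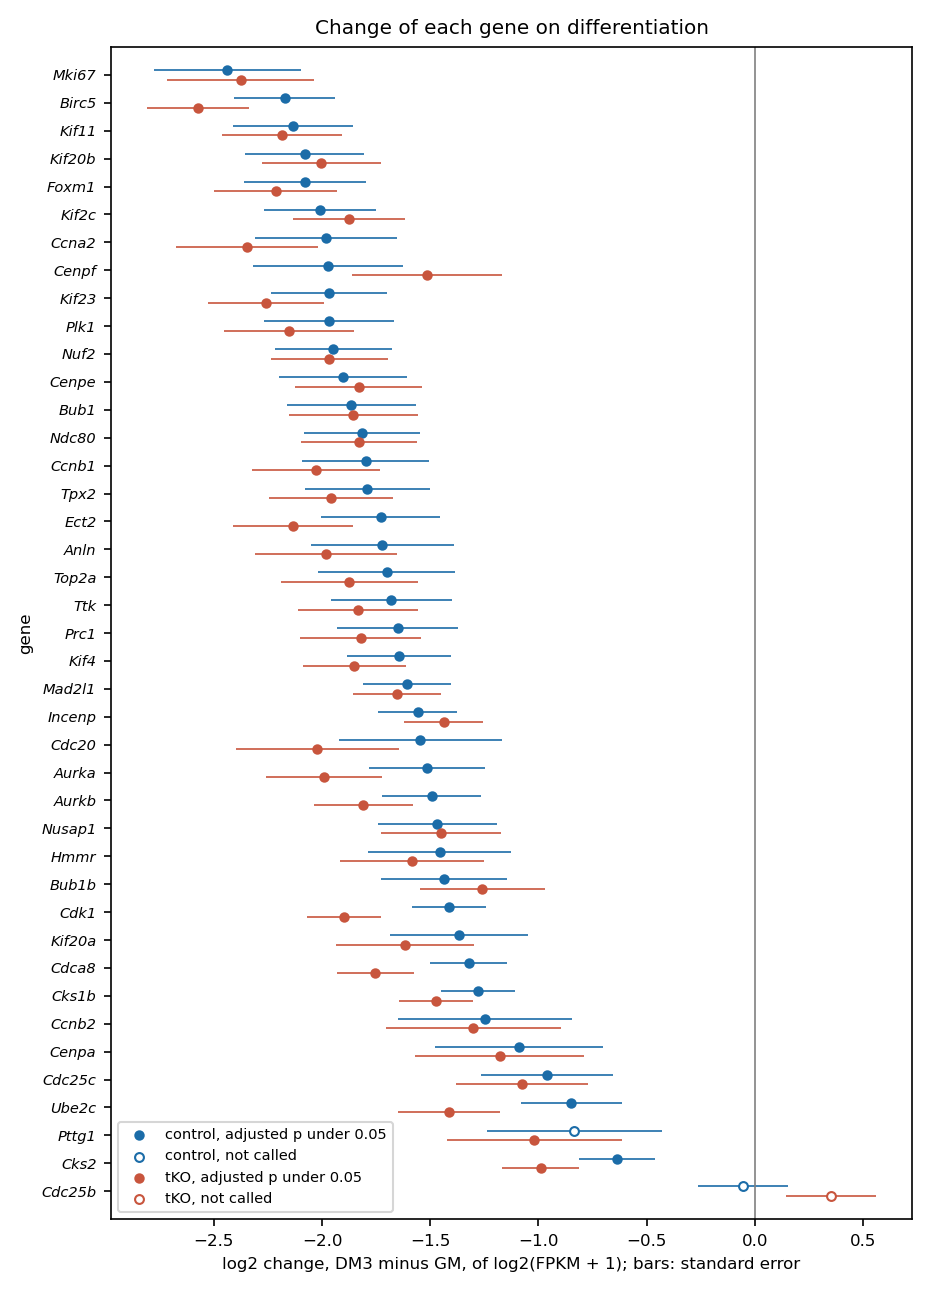
Log2 change from GM to DM3 of each of the 41 genes on the log2(FPKM + 1) scale, with the fitted value as a point and its standard error as a bar, in control (blue) and tKO (red) cells, where filled points passed an adjusted p of 0.05. Changes run from -2.44 for Mki67 to -0.06 for Cdc25b in control cells, and the open points are Cdc25b in both genotypes and Pttg1 in control cells.

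All 6 mitotic kinases fell in both genotypes. Plk1, which drives centrosome maturation and many later steps (chr7:122159437-122169875), had the largest control change of them. It stood at 50.3, 49.6, 61.9 and 42.4 FPKM in control GM and 14.3, 9.31, 15.4 and 10.8 FPKM in control DM3, and at 62.1, 28.6, 72.6 and 27.8 FPKM in tKO GM and 6.91, 7.24, 16.1 and 8.02 FPKM in tKO DM3. Each stage kept to its own range, and the 2 tKO GM libraries of culture 1 were above all 4 control GM libraries while the 2 of culture 2 were below them. Plk1 fell by 1.97 (SE 0.30) in control and 2.15 (SE 0.30) in tKO cells.

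Aurka, the kinase of the spindle poles, was the most abundant of the group, at 48.04, 49.8, 56.1 and 43.3 FPKM in control GM and 19.5, 15.1, 17.97 and 14.1 FPKM in control DM3. In tKO cells Aurka was at 59.4, 35.4, 65.3 and 28.1 FPKM in GM and 6.12, 10.6, 18.1 and 9.92 FPKM in DM3. Aurkb, the kinase of the chromosomal passenger complex, was at 33.3, 50.3, 37.9 and 48.8 FPKM in control GM and 13.9, 12.5, 16.8 and 14.1 FPKM in control DM3, and at 45, 33.3, 42.3 and 31.4 FPKM in tKO GM and 6.25, 8.13, 17.8 and 10.7 FPKM in tKO DM3. For both Aurora kinases the stages did not overlap, and Aurka kept 33.8% of its GM mean in control and 23.7% in tKO cells. Bub1b (BubR1, a checkpoint protein with a kinase-like domain) read 51.6, 43.6, 51.2 and 35.9 FPKM in control GM, 18.9, 13.2, 20.3 and 13.1 FPKM in control DM3, 42.4, 20.4, 49.7 and 20.6 FPKM in tKO GM and 8.97, 9.74, 21.3 and 11.9 FPKM in tKO DM3. Its highest tKO DM3 library, clone 2 of culture 1, lay above both tKO GM libraries of culture 2. Bub1 and Ttk (Mps1), kinases that start checkpoint signalling at the kinetochore, fell by 1.86 and 1.68 in control cells.

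Of the 4 genes of spindle checkpoint and anaphase control, 3 fell in control cells and 4 in tKO cells. Cdc20, the activator of the anaphase-promoting complex (chr4:118432901-118437352), reached 102, 76.1, 130.0 and 63.2 FPKM in control GM against 33.5, 28.6, 37.8 and 22.1 FPKM in control DM3. In tKO cells Cdc20 spread from 171, 61.8, 159.7 and 46.7 FPKM in GM to 17.3, 20.04, 39.3 and 18.6 FPKM in DM3. Culture 1 was higher than culture 2 in every line in GM. Cdc20 fell by 1.54 (SE 0.38, adjusted p = 0.0021) in control and by 2.02 (SE 0.38, adjusted p = 0.000217) in tKO cells.

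Mad2l1 encodes Mad2, the checkpoint protein that holds Cdc20 inactive. It was at 48.1, 51.7, 56.6 and 46.6 FPKM in control GM and 14.1, 15.4, 16.4 and 18.1 FPKM in control DM3. In tKO cells Mad2l1 was at 56.9, 33.7, 58.8 and 31.04 FPKM in GM and 10.1, 10.5, 17.03 and 16.1 FPKM in DM3. Mad2l1 DM3 libraries all lay below its GM libraries, and its changes of -1.61 and -1.66 were both called. Ube2c, the ubiquitin-conjugating enzyme that works with the anaphase-promoting complex, read 42.3, 56.6, 52.9 and 51.1 FPKM in control GM, 30.7, 26.4, 30.6 and 23.3 FPKM in control DM3, 58.95, 44.2, 69.6 and 31.7 FPKM in tKO GM and 13.3, 15.02, 29.9 and 16.5 FPKM in tKO DM3. Ube2c kept 54.7% of its GM mean in control and 36.6% in tKO cells. Pttg1, or securin, the inhibitor of separase, was at 27.4, 15.5, 32.8 and 12.6 FPKM in control GM and 9.12, 11.7, 13.98 and 10.01 FPKM in control DM3. Those Pttg1 ranges overlapped, and its control change of -0.83 was not called (adjusted p = 0.084), while the tKO change of -1.02 was (adjusted p = 0.038), and the difference between the genotypes was not (adjusted p = 0.93). The tKO call of Pttg1 was lost without clone 1, without either control population (which enters through the shared spread) or without any of 4 single tKO libraries (the culture 1 GM library of either clone and either DM3 library of clone 1), and also when every gene above 0 was tested (adjusted p = 0.080) and under median-of-ratios scaling (adjusted p = 0.071).

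The 5 centromere and kinetochore genes fell in both genotypes. Cenpa, the histone H3 variant that marks the centromere, had the highest level of them, 69.8, 44.9, 78.8 and 40.9 FPKM in control GM and 23.8, 32.7, 26.3 and 22.2 FPKM in control DM3. In tKO cells Cenpa read 79.4, 26.4, 99.5 and 22.4 FPKM in GM and 17.8, 14.4, 29.6 and 21.2 FPKM in DM3. The control libraries separated by stage and the tKO libraries did not. The control change of Cenpa, -1.09 (adjusted p = 0.023), passed the test narrowly. It did not pass without either population as a whole (adjusted p = 0.15 and 0.22), without the culture 1 GM library of either population (adjusted p = 0.060 for population 1 and 0.071 for population 2), without the culture 2 DM3 library of population 2 (adjusted p = 0.055), when every gene above 0 was tested (adjusted p = 0.055) or under median-of-ratios scaling (adjusted p = 0.059). In tKO cells the change of Cenpa, -1.18 (adjusted p = 0.015), did not pass without clone 1 or without the culture 1 GM library of either clone (adjusted p = 0.058 for clone 1 and 0.061 for clone 2). Cenpf, a large protein of the outer kinetochore, was at 14.7, 10.8, 11.3 and 13.4 FPKM in control GM and 2.43, 2.18, 2.02 and 3.24 FPKM in control DM3. In tKO cells Cenpf was at 11.7, 6.08, 17.7 and 4.899 FPKM in GM and 0.713, 2.45, 3.34 and 4.82 FPKM in DM3. It separated by stage in both genotypes, by 0.08 FPKM in tKO cells. The microtubule-binding partners Ndc80 and Nuf2 fell by 1.81 and 1.95 in control cells, and the kinetochore motor Cenpe by 1.90.

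The chromosomal passenger complex, which corrects attachments and marks the midzone, had 3 members beside Aurkb, and all 3 fell in both genotypes. Birc5 (survivin; chr11:117849251-117855743) measured 32.3, 32.3, 38.3 and 29.1 FPKM in control GM and 6.14, 5.47, 8.55 and 6.19 FPKM in control DM3. Its tKO levels were 41.8, 24.6, 42.9 and 22.6 FPKM in GM and 2.71, 3.97, 7.19 and 5.001 FPKM in DM3. Birc5 had the largest change of all members in tKO cells, -2.57 (adjusted p = 1.38e-07), beside -2.17 (adjusted p = 9.14e-07) in control cells. Incenp, the scaffold, measured 51.5, 73.9, 54.1 and 64.4 FPKM in control GM and 22.9, 16.1, 23.7 and 17.7 FPKM in control DM3, with 64.3, 47.6, 52.1 and 38.1 FPKM in tKO GM and 14.7, 16.2, 24.5 and 16.8 FPKM in tKO DM3. Cdca8 (borealin) measured 16.2, 17.6, 19.6 and 15.8 FPKM in control GM and 6.23, 6.14, 6.59 and 6.26 FPKM in control DM3, and 27.2, 18.7, 23.1 and 12.7 FPKM in tKO GM and 4.08, 4.79, 6.71 and 5.25 FPKM in tKO DM3. Every stage comparison of these 3 genes was free of overlap, and Incenp kept more of its GM mean than Birc5 did, 32.97% against 19.96% in control cells.

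All 6 kinesin motors fell in both genotypes. Kif11 (Eg5), which pushes the spindle poles apart (chr19:37376403-37421859), stood at 27.4, 29.7, 24.2 and 34.1 FPKM in control GM and 6.73, 5.06, 5.27 and 6.05 FPKM in control DM3. In tKO cells Kif11 stood at 32.6, 18.8, 27.8 and 15.4 FPKM in GM and 1.57, 4.72, 6.68 and 5.47 FPKM in DM3. Kif11 fell by 2.13 and 2.19, and in neither genotype did its stages overlap. Kif20a, a motor of the midzone and the most abundant of the group, was at 38.2, 32.1, 42.9 and 27.4 FPKM in control GM and 16.1, 11.7, 14.5 and 9.83 FPKM in control DM3, with 34.7, 16.1, 43.4 and 17.4 FPKM in tKO GM and 4.63, 5.54, 14.1 and 9.12 FPKM in tKO DM3. It kept 37.1% of its control GM mean, while Kif20b kept 16.99%, Kif23 22.6%, Kif2c 22.1% and Kif4 28.5%. Kif23 is a subunit of centralspindlin, Kif2c a microtubule depolymerase and Kif4 a chromosome-associated motor.

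The 6 genes of spindle assembly and cytokinesis fell as well. Anln (anillin, a scaffold of the contractile ring) was at 66.7, 53.97, 62.6 and 52.7 FPKM in control GM and 19.9, 15.8, 17.04 and 15.99 FPKM in control DM3, and at 59.6, 34.8, 80.1 and 35.2 FPKM in tKO GM and 4.58, 11.3, 19.6 and 17.5 FPKM in tKO DM3. Tpx2, which activates Aurka and nucleates spindle microtubules, was at 57.2, 49.95, 58.03 and 50.7 FPKM in control GM and 16.7, 13.2, 15.7 and 14.1 FPKM in control DM3, and at 56.7, 38.02, 65.4 and 33.9 FPKM in tKO GM and 4.72, 11.6, 19.3 and 14.7 FPKM in tKO DM3. Nusap1, a microtubule-bundling protein, read 15.4, 19.9, 14.5 and 22.7 FPKM in control GM, 7.19, 4.82, 5.26 and 6.24 in control DM3, 12.6, 10.2, 18.6 and 11.7 in tKO GM and 1.65, 3.65, 7.39 and 5.58 in tKO DM3. For these 3 genes the stages did not overlap in either genotype, and the control changes were -1.72, -1.79 and -1.47. The midzone bundler Prc1, the RhoA activator Ect2 and the microtubule-binding Hmmr fell by 1.65, 1.73 and 1.46 in control cells.

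Mki67, the surface coat of mitotic chromosomes and a common proliferation marker (chr7:135689788-135716379), had the largest control change of all members. It stood at 37.9, 29.5, 26.96 and 41.1 FPKM in control GM and 5.29, 5.897, 3.62 and 7.06 FPKM in control DM3. Its tKO levels were 36.8, 21.99, 41.5 and 21.7 FPKM in GM and 1.36, 6.196, 7.7 and 6.82 FPKM in DM3. Every DM3 library lay below every GM library, and the control mean fell from 33.9 ± 6.71 (SD, n = 4) to 5.47 ± 1.43 (SD, n = 4) FPKM, or to 16.1% (log2 change -2.44, SE 0.34, adjusted p = 1.32e-05). Top2a, the topoisomerase that untangles chromosomes, had the highest mean level of all members per length, at 107, 132, 94.5 and 141 FPKM in control GM and 44.2, 31.4, 34.05 and 32.9 FPKM in control DM3. Its tKO levels were 104, 76.3, 121 and 83.7 FPKM in GM and 10.3, 22.5, 47.5 and 35.2 FPKM in DM3. Top2a separated by stage and kept 30.04% of its GM mean in control and 29.9% in tKO cells.

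Foxm1, the transcription factor that switches on many late cell cycle genes together with B-Myb (chr6:128362967-128375893), fell with them. It was at 42.6, 44.7, 42.6 and 40.2 FPKM in control GM and 11, 7.17, 11.1 and 8.499 FPKM in control DM3. In tKO cells Foxm1 was at 37.7, 26.7, 43.5 and 28.2 FPKM in GM and 2.68, 5.42, 12.2 and 8.63 FPKM in DM3. Its ranges did not overlap between stages, and it fell by 2.08 in control and 2.21 in tKO cells (adjusted p = 1.1e-05 and 5.54e-06).

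**Figure D3:**
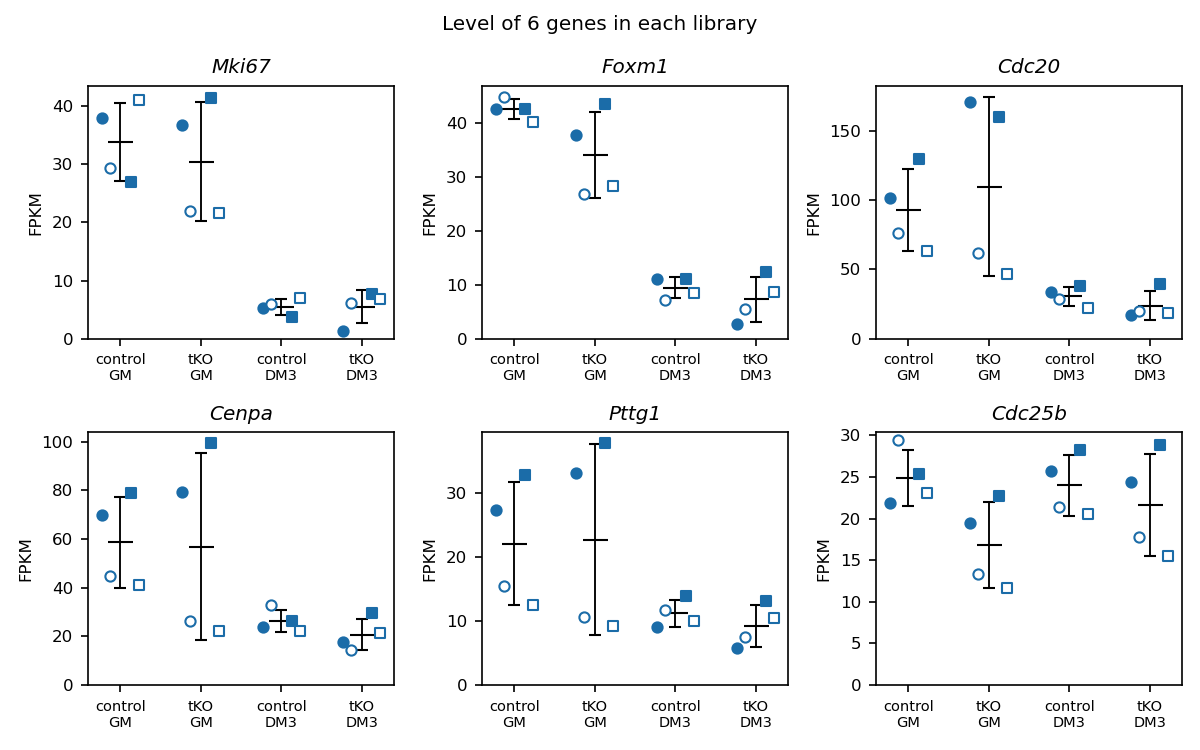
FPKM of Mki67, Foxm1, Cdc20, Cenpa, Pttg1 and Cdc25b in each library, with circles for line 1 (control population 1 or tKO clone 1), squares for line 2, filled symbols for culture 1 and open symbols for culture 2, and the group mean and SD as a dash with bars (n = 4). Mki67 and Foxm1 sit lower in all DM3 libraries, the tKO GM libraries of Cdc20, Cenpa and Pttg1 split by culture, and Cdc25b stays at 11.7 to 29.5 FPKM throughout.

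Other genes of the pathway are given by lists made from general knowledge. Of 81 further mitosis genes, 80 were in the table and tested. In control cells 76 of them fell on differentiation, 1 rose and 3 did not pass, with a median log2 change of -1.39, and in tKO cells 77 fell, 1 rose and 2 did not pass, with a median of -1.48. Melk, a kinase expressed in dividing cells, fell from 17.7 ± 0.469 to 2.63 ± 0.528 FPKM (SD, n = 4) in control cells, and Psrc1, a microtubule-associated protein, rose from 15.3 ± 0.799 to 39.6 ± 10.3 FPKM. Both changed the same way in tKO cells, with log2 changes of -2.31 and 1.06 (adjusted p = 5.87e-09 and 0.000663).

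The 14 core subunits of the anaphase-promoting complex had a smaller median change than the members did. Over all tested genes 38.3% fell and 23.2% rose in control cells and 36% fell and 24.9% rose in tKO cells, and the counts of this list and of the next 2 are to be read against those shares. In control cells 7 of the 14 fell, 1 rose and 6 did not pass, with a median of -0.38. Cdc16 rose from 40.1 ± 3.65 to 66.3 ± 9.47 FPKM (SD, n = 4), and Anapc15 fell from 2.85 ± 0.639 to 0.57 ± 0.106 FPKM. In tKO cells 9 fell and 2 rose. Of 19 E2F, pocket protein and MuvB regulators, the factors that switch these promoters off and on, 12 fell and 2 rose in control cells and 13 fell and 4 rose in tKO cells. Mybl2 (B-Myb) fell from 18.2 ± 1.73 to 1.82 ± 0.237 FPKM, and Rb1, the retinoblastoma protein that restrains E2F, rose from 7.87 ± 1.74 to 13.97 ± 1.60 FPKM. Of 13 mitotic phosphatases and inhibitors, 6 fell and 2 rose in control cells and 7 fell and 2 rose in tKO cells. The phosphatase inhibitor Ensa rose from 43.5 ± 4.57 to 83.1 ± 3.15 FPKM, while its relative Arpp19 fell from 21.2 ± 1.13 to 10.9 ± 1.13 FPKM.

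Between the tKO clones and the control populations no member had a called difference in growth medium. Of the 41, 36 were lower on average in tKO GM, the median log2 difference was -0.22 beside -0.01 over all tested genes, and 0 passed the limma test, where 2.06% of tested genes did. By unadjusted p under 0.05 there was 1 member, and voom on fragment numbers called 0. No member had all 4 tKO GM libraries on 1 side of all 4 control GM libraries, which 14% of tested genes had. The smallest p belonged to Cdc25b, at a mean of 24.9 ± 3.36 (SD, n = 4) FPKM in control and 16.8 ± 5.18 (SD, n = 4) FPKM in tKO GM (log2 difference -0.58, SE 0.21, limma adjusted p = 0.15). Bub1b, Nusap1 and Incenp followed, with differences of -0.54, -0.43 and -0.28 (adjusted p = 0.35, 0.45 and 0.46). Cdc25b was called when the 2 libraries of a line were averaged (adjusted p = 0.039), with culture as a block within each stage (adjusted p = 0.048) and without the culture 1 library of clone 2 (adjusted p = 0.046).

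The tKO GM libraries split by culture. The mean log2(FPKM + 1) of the 41 genes was 5.30 for clone 1 and 5.47 for clone 2 in culture 1, and 4.55 and 4.41 in culture 2, while the 4 control GM libraries stayed between 5.08 and 5.22. Summed FPKM of the members was 1919 and 2109 in the tKO GM libraries of culture 1 and 1125 and 1006 in those of culture 2. Control GM libraries summed to between 1577 and 1804 FPKM. Culture 2 of clone 2 was the lowest of the 8 GM libraries for 30 members, and culture 1 of clone 2 was the highest for 27. Such counts were not made over all tested genes.

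Within cultures the members' genotype differences in GM had opposite signs. These within-culture comparisons were added after the values were seen, and each rests on 2 tKO and 2 control libraries with the spread taken from all 16. In culture 1, 36 of 41 members were higher on average in tKO GM, with a median of 0.20, and 0 were called (1 at an unadjusted p under 0.05, and 0 with voom), beside 0.6% of tested genes. In culture 2 all 41 were lower, with a median of -0.61. There 1 member was called lower, Cdc25b (-1.01, SE 0.15, adjusted p = 0.0047), and 1.95% of tested genes were. That call was lost without the culture 2 library of control population 1 (adjusted p = 0.098). The count was 23 members without the culture 1 DM3 library of clone 1 and 23 without that of clone 2, libraries that enter this comparison only through the shared spread. In the same fits the share of all tested genes called lower went from 1.95% to 3.89% and 3.87%.

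In culture 2 both clones lay below both populations for 37 of 41 members, as for 33.3% of tested genes, and in culture 1 both clones lay above both populations for 22, as for 24.1%. The genotype by culture difference itself was below 0 for all 41, with a median of -0.82, but no member was called (7 at an unadjusted p under 0.05, 0 with voom), beside 0.0169% of tested genes. Cdc25b had the smallest p (-0.85, adjusted p = 0.46).

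**Figure D4:**
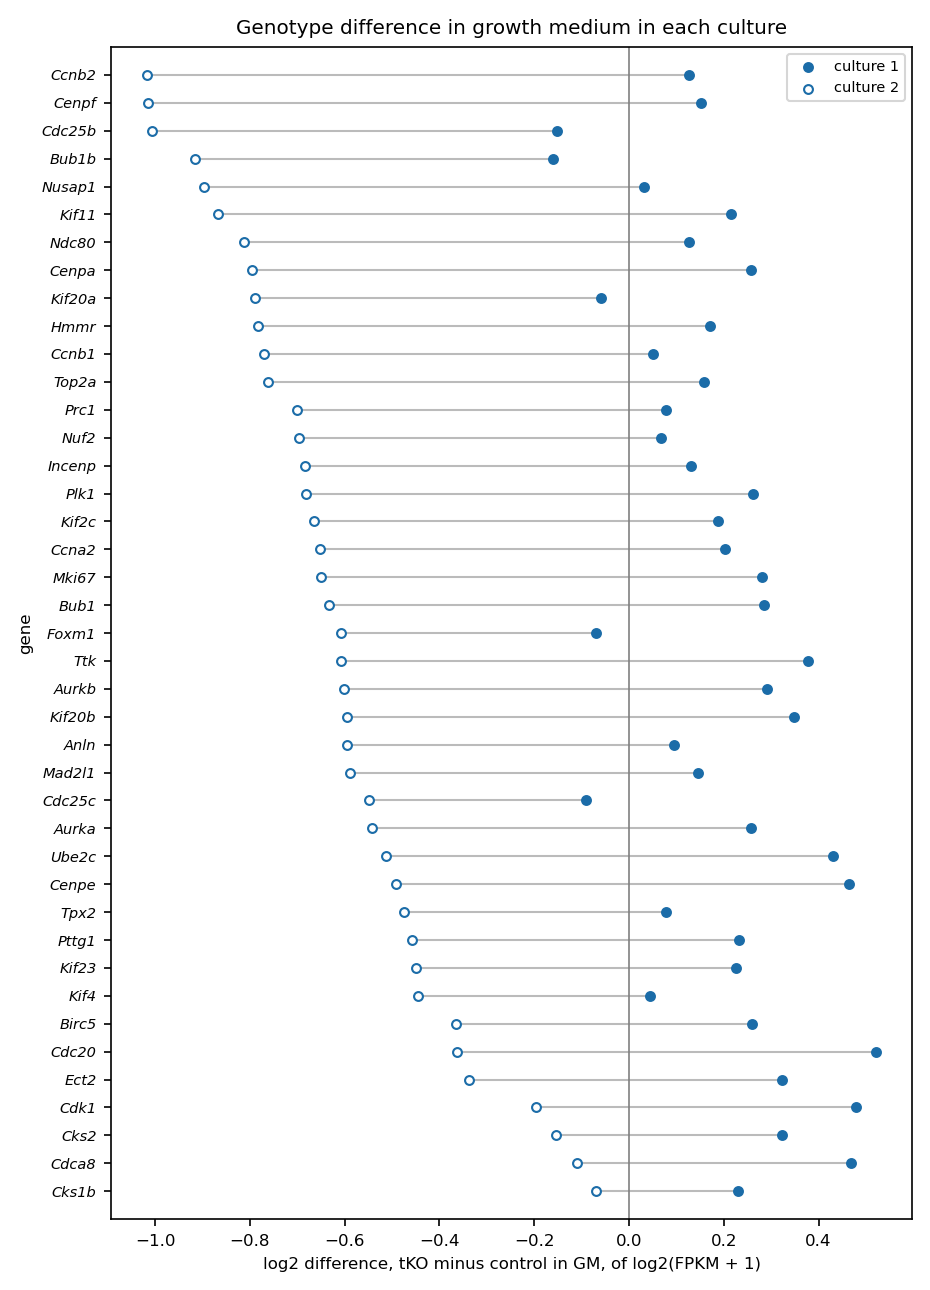
Difference between tKO and control in GM for each of the 41 genes on the log2(FPKM + 1) scale, in culture 1 (filled) and culture 2 (open), each point the mean of 2 clones minus the mean of 2 populations, with a line joining the cultures of a gene. The points of culture 2 all lie below 0 and 36 of the points of culture 1 lie above it.

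Comparing cultures directly, also added after the values were seen, 4 members were called lower in culture 2 than in culture 1 of GM over both genotypes, beside 1.14% of tested genes. They were Pttg1 (-1.40, adjusted p = 0.0089), Cenpa (-1.30, adjusted p = 0.015), Cdc20 (-1.16, adjusted p = 0.021) and Ccnb2 (-1.21, adjusted p = 0.027). Each was lower in culture 2 in all 4 lines. Pttg1 went from 27.4 to 15.5 and from 32.8 to 12.6 FPKM in the populations and from 33.1 to 10.7 and from 37.9 to 9.15 FPKM in the clones. Ccnb2 went from 54.97 to 39.8 and from 64.04 to 35.9 FPKM in the populations and from 55.9 to 20.1 and from 75.3 to 16.4 FPKM in the clones. The number called was 1 to 2 without the culture 2 GM library of population 2 or any single tKO GM library, where 0.118% to 0.355% of tested genes were called lower. It was 15 without the culture 1 DM3 library of clone 1, where 2.97% were.

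Within tKO cells 8 members were called lower in culture 2 of GM (2.19% of tested genes were), and within control cells 0 were, where 0% of tested genes were. In control cells 4 members had an unadjusted p under 0.05, as 4.49% of tested genes did, and voom called 0. The spread was again shared between control and tKO libraries. The tKO changes were -1.83 for Cenpa, -1.78 for Ccnb2, -1.74 for Pttg1 and -1.60 for Cdc20, and the control changes of the same genes were -0.78, -0.64, -1.05 and -0.72. Cdc25b, Plk1, Cks2 and Bub1b were the other 4 called in tKO cells. The count of 8 ranged from 1 to 34 when single libraries were left out, with 1 without the culture 1 GM library of clone 2 (0.397% of tested genes called lower), 3 to 5 without another tKO GM library (0.507% to 1.56%), and 34 without either culture 1 DM3 library of the tKO clones (4.3% in each case). In the tKO GM libraries the summed myoblast and myotube markers were 103 and 143 FPKM in cultures 1 and 2 of clone 1. The sums were 64.0 and 74.4 FPKM in those of clone 2. Single markers went both ways from culture 1 to culture 2. Acta1 rose from 9.02 to 72.1 FPKM in clone 1 and from 18.1 to 25.9 FPKM in clone 2. Des fell in both clones, in clone 1 from 41.4 to 25.6 FPKM. Cdh15 fell from 40.3 to 32.3 FPKM in clone 1 and rose from 19.6 to 26.4 FPKM in clone 2. The part of these markers in the result was not tested.

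After 3 days of differentiation the members again showed no called genotype difference. In tKO DM3 39 of 41 were lower on average than in control DM3, with a median log2 difference of -0.38 beside 0.01 over all tested genes. By limma 0 were called (2 at an unadjusted p under 0.05, 0 with voom), where 3.38% of tested genes were, and 0 members separated fully, where 8.52% of tested genes did. The smallest p belonged to Ube2c (-0.61, SE 0.23, adjusted p = 0.20), then Aurka (-0.62, adjusted p = 0.25), Kif20a (-0.67, adjusted p = 0.30) and Aurkb (-0.47, adjusted p = 0.31). Ube2c averaged 27.8 ± 3.598 (SD, n = 4) FPKM in control and 18.7 ± 7.58 (SD, n = 4) FPKM in tKO DM3. Its tKO value in clone 2, culture 1 lay inside the control range and the other 3 lay below it.

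Averaged over the cultures, the DM3 difference was seen in clone 1 and not in clone 2. Against the controls, clone 1 alone had a median difference of -0.81 and 19 members called lower, as 5.14% of tested genes were, and clone 2 alone had a median of 0.06 and 0 called, beside 4.78% of tested genes in either direction. Mean log2(FPKM + 1) of the members was 2.51 and 3.08 in cultures 1 and 2 of clone 1, and 3.82 and 3.38 in cultures 1 and 2 of clone 2. The 4 control DM3 libraries ran from 3.43 to 3.67, so clone 2 lay above that range in culture 1 and below it in culture 2. Leaving out the culture 1 library of clone 2 gave 2 members called, Aurkb (-0.73, adjusted p = 0.033) and Ube2c (-0.85, adjusted p = 0.027), beside 5.05% of tested genes.

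The culture 1 library of clone 1 stood apart in DM3. It was the lowest of the 8 DM3 libraries for 36 members and below all 4 control libraries for 39. Its members were at a median of 36.0% of the control mean, while the mean of the other 3 tKO libraries was at a median of 91.7%. The library was singled out after its values were seen, and these counts were not made over all tested genes. In this library Ttk was at 0.586 FPKM, or 19.7% of its control mean, Mki67 at 1.36 FPKM, or 24.8%, Kif11 at 1.57 FPKM, or 27.2%, and Foxm1 at 2.68 FPKM, or 28.5%. Cdc25b was at 102% of its control mean and Cks1b at 92.2%. Ttk was chosen here after its values were seen, as the lowest share. The summed myoblast and myotube markers (12 genes, Myod1, Myog, and Des among them) were 1320 FPKM in this library. The sums were 524, 1125 and 448 FPKM in clone 1 culture 2 and clone 2 cultures 1 and 2. Control DM3 libraries ran from 940 to 1331 FPKM. The largest parts of the sum in this library were Acta1 (663.5 FPKM) and Des (312 FPKM), and single markers went both ways. Acta1, Myod1, Myog, Ckm, Myh3, Tmem8c and Cdh15 lay above all 4 control DM3 libraries, with Myog at 20.4 FPKM beside at most 8.65. Of these, Acta1, Ckm, Myh3, Tmem8c and Cdh15 also lay above all 4 in culture 1 of clone 2. That library had the highest mean member level of DM3 (3.82), so these markers do not set the culture 1 library of clone 1 apart. Tnnt3, Myf5 and Mef2c (near 0) lay below all 4, and Des and Myf6 lay within the control range. Satellite cell markers (5 genes, with Pax7 and Calcr at or near 0) summed to 169 FPKM in this library, above the 79.5 to 134 FPKM of control DM3 and the 135, 73.9 and 105 FPKM of the other 3 tKO DM3 libraries. Of these, Sdc4 was at 105 FPKM there and at most 79.1 FPKM in the other 7 DM3 libraries. The part of either marker list in the result was not tested.

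**Figure D5:**
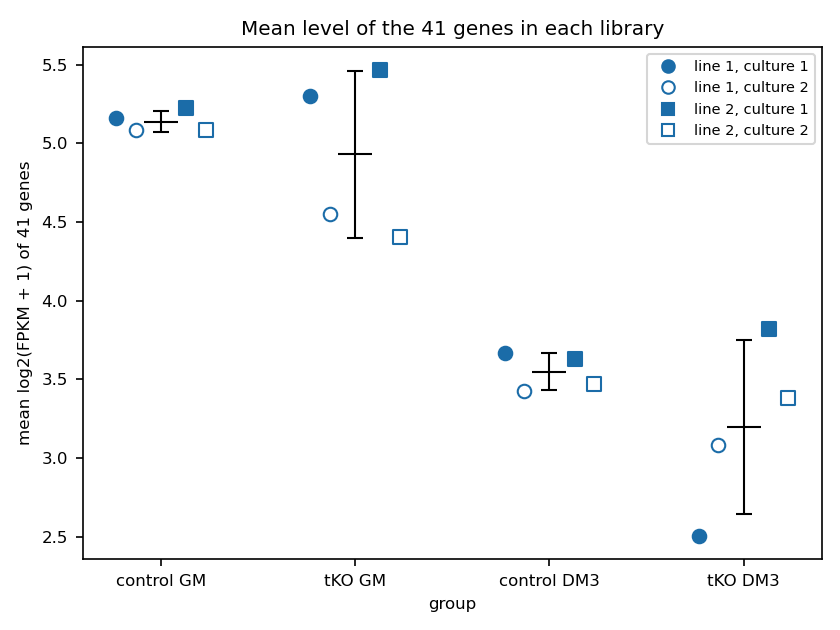
Mean log2(FPKM + 1) of the 41 genes in each library, with circles for line 1 (control population 1 or tKO clone 1), squares for line 2, filled symbols for culture 1 and open symbols for culture 2, and the group mean and SD (n = 4) as a dash with bars. Control libraries lie within 5.08 to 5.22 in GM and 3.43 to 3.67 in DM3, and tKO libraries within 4.41 to 5.47 and 2.51 to 3.82.

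Within cultures of DM3, compared after the values were seen, all 41 members were lower on average in tKO cells in culture 1 (median -0.53, 0 called, 4 at an unadjusted p under 0.05, beside 1.08% of tested genes called) and 35 in culture 2 (median -0.21, 0 called, 3 at an unadjusted p under 0.05, beside 5.16%). Voom called 0 in both. The count in culture 1 was 32, all lower, without the culture 1 library of clone 2, which leaves 1 tKO library, assumed to vary like the others, and 14.6% of tested genes were then called. In culture 2 it was 2 without either culture 1 tKO library, which act there only through the shared spread, beside 10.9% and 10.8% of tested genes. Both clones lay below both populations for 4 members in culture 1 and 18 in culture 2, as for 22.6% and 23.95% of tested genes.

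The fall on differentiation was not shown to differ between genotypes. The genotype by stage interaction called 0 members in limma, with 0 at an unadjusted p under 0.05 and 0 in voom, where 0.254% of tested genes were called. Its median was -0.17, with 31 of 41 below 0, meaning a larger fall in tKO cells. The smallest p values were those of Cdk1 (-0.49, SE 0.24, adjusted p = 0.49) and Cdca8 (-0.43, SE 0.25, adjusted p = 0.55). Without clone 1 the median became 0.29, and without clone 2 it became -0.61, with 0 called in each case. In the genotype comparisons 1 of the 80 further mitosis genes was called in each stage, where 2.06% of all tested genes were called in GM and 3.38% in DM3. The calls were Ska1 (0.53 in GM, adjusted p = 0.044) and Zwint (0.67 in DM3, adjusted p = 0.037), both kinetochore genes higher in tKO cells and named after their values were seen. So few calls do not set this list apart from other genes. Among the other pathway lists, beside the same shares, the only calls were Anapc16 (0.33, adjusted p = 0.044) and Anapc2 (-0.44, adjusted p = 0.028) in GM and E2f5 (1.04, adjusted p = 0.000821) in DM3. The first 2 are of 14 core subunits of the anaphase-promoting complex, and E2f5 is of 19 E2F, pocket protein and MuvB regulators.

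Between the clones the members differed in a common direction in DM3 but not in GM, without a called member. In GM, a comparison added later, 26 members were higher and 15 lower in clone 2 than in clone 1, with a median of 0.04, 0 called by limma or voom (0 at an unadjusted p under 0.05) and 0.727% of tested genes called. In DM3, also added later, all 41 were higher in clone 2 with a median of 0.87, and 0 were called by limma or voom (23 at an unadjusted p under 0.05), beside 2.03% of tested genes. That DM3 count was 6 with culture number as a block within each stage, where 4.39% of tested genes were called higher, and 14 without the culture 2 DM3 library of clone 1, where 8.92% were. Averaged over the stages, 38 of 41 members were higher in clone 2, with a median of 0.42 beside 0.03 over all tested genes. None was called by limma or voom (10 at an unadjusted p under 0.05), where 5.41% of tested genes were called. Top2a (0.77, SE 0.24, adjusted p = 0.080) and Nusap1 (0.72, SE 0.22, adjusted p = 0.081) had the smallest p. The averaged count was 1 (Kif20a) with the block within each stage, beside 14.1% of tested genes, and 9, Top2a and Nusap1 among them, without the culture 2 DM3 library of clone 1, where 8.87% of tested genes were called higher. The control populations differed by a median of 0.01, with 0 members called by limma or voom (0 at an unadjusted p under 0.05) and 0% of tested genes. Only 0.355% of tested genes had an unadjusted p under 0.05 there. The spread was shared with tKO libraries, whose mean member level had an SD of 0.53 in GM and 0.55 in DM3. In control cells that SD was 0.066 in GM and 0.12 in DM3, so this test could hardly call a control difference.

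Culture 2 against culture 1 in DM3 called 0 members (3 at an unadjusted p under 0.05, 0 with voom), where 10.3% of tested genes were called. Cdc25b (-0.50, adjusted p = 0.057) and Cks1b (-0.29, adjusted p = 0.13) had the smallest p, and both were lower in culture 2 in all 4 lines. Cdc25b was called without any of 3 GM libraries (culture 2 of population 1 and either culture of clone 2, adjusted p = 0.039, 0.045 and 0.049), which act only through the shared spread. Without the culture 1 DM3 library of clone 1, 9 members were called, beside 10.9% of tested genes.

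Depth ran from 22642563 to 56585952 fragments per library. Myoblast and myotube markers summed to 69.4 to 87.4 FPKM in control GM and 64.0 to 143 FPKM in tKO GM, beside the DM3 sums given above, and Myod1 was listed at 0 in all 4 control GM libraries and Pax7 at or near 0 in all 16. Satellite cell markers summed to 131 to 149 FPKM in control GM and 109 to 171 FPKM in tKO GM. Adipocyte markers (5 genes) summed to between 4.02 and 15.45 FPKM, and immune markers (4 of 5 genes in the table) to at most 4.04 FPKM. Endothelial markers (4 genes) summed to at most 0.483 FPKM and neuronal and glial markers (4 genes) to at most 0.699 FPKM in any library. Fibroblast markers (6 genes, mostly Col1a1 and Col1a2) lay between 502 and 1040 FPKM in tKO GM, 904 and 1419 in control GM, 1689 and 3295 in tKO DM3, and 2613 and 3072 in control DM3, with Lum and Thy1 at or near 0, and their part in the results was not tested. Under median-of-ratios scaling the median of all tested genes on differentiation of control cells moved from -0.15 to 0.01, and the split of all calls went from 2743 higher and 4529 lower to 3648 higher and 3615 lower, while the members' median was -1.46. Whether counting used the strand is not given in the sources used here, so members that overlap other genes or have near-identical copies are uncertain.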

How the data were processed

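RNA-seq levels of 16 C2C12 libraries were deposited by the authors as FPKM values per gene, and the submitters' processing notes name STAR, DESeq and the build mm10. Their roles, versions and the strand setting are not given in the sources used here. Depth was 22642563 to 56585952 fragments per library, and 100% of the values gave whole fragments (within 0.02 fragments or a relative 1e-06). A count of 3 fragments was taken as the floor, for counting error only.

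Levels were tested as log2(FPKM + 1) with limma 3.58.1 (R 4.3.3; moderated with trend and robust settings, two-sided) over the 11832 genes with a mean of at least 0.5 FPKM. All 16 libraries shared 1 estimate of the spread, p-values were Benjamini-Hochberg adjusted over all tested genes, and a call is an adjusted p under 0.05. Group means were fitted for stage, genotype and their interaction, line by stage means for clones and populations, and culture within stage for the culture comparison. Alternatives were other pseudocounts, filters and scalings, blocks, line averages, voom on fragment numbers, and leaving out each library or line. The pipeline was tested on simulated counts for the genotype comparison in GM, drawn without line or culture effects. The simulation therefore does not show how the tests behave with the split between cultures seen here. Culture in GM, comparisons within culture, clones within stage and the block within stage were chosen after seeing the data.

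The members and lists were chosen with earlier results of these data known. Genes given in every library were, per role, the member with the highest mean and the largest control change, plus the 4 smallest p in each genotype comparison and the 2 smallest in the interaction, clone and culture comparisons. In the other pathway lists the smallest p in each direction was named. Gene spans are as deposited (mm10), promoters and the mature microRNA are from RefSeq (GRCm38.p6), and 3′ UTRs from GENCODE vM21. Python 3.11.15, numpy 2.4.6, pandas 2.3.3, scipy 1.17.1 and matplotlib 3.10.9 were used.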

Additional observations from a re-analysis of the deposited data

Results flagged for a closer look

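In 5 of 164 groups of 4 libraries (3.05%), where chance gives about 1 in 20, 1 library stood far from the other 3 by Dixon's ratio, above its 95% critical value for 4 samples. In tKO DM3, culture 1 of clone 2 was the highest for Plk1, at 16.15 FPKM where the others lay between 6.91 and 8.02, and for Cdc20, at 39.26 FPKM where the others lay between 17.3 and 20.04. In control GM, culture 2 of population 2 was the highest for Ndc80, at 21.02 FPKM with the others between 17.65 and 18.01. Culture 2 of population 1 was the lowest in control GM for Hmmr, at 20.98 FPKM with the others between 25.2 and 25.8. The same library was the highest for Prc1, at 56.77 FPKM with the others between 52.5 and 52.6.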

How the results depend on the processing

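With limma, calls on differentiation were mostly kept: of 1209 results for called members in control cells under the alternatives 1190 stayed called and 19 did not, and of 1240 in tKO cells 1226 stayed and 14 did not. Some alternatives left out only libraries of the other genotype, which kept the log2 change and acted only through the shared spread. The totals therefore overstate how far the calls were tried. Most of the 19 losses in control cells came from leaving out a whole control population. No direction reversed among the results with a call. The members' median control change was -1.77 with TPM scaling and -1.46 with median-of-ratios scaling. Testing every gene above 0 left 2 members called for culture in GM and 4 for culture in GM within tKO cells, which was 5 with TPM scaling. Median-of-ratios scaling gave 2 for culture in DM3. Line averages as units gave 1 for genotype in GM (Cdc25b). Without clone 2, 19 were called for genotype in DM3. When single libraries were left out the count ran from 0 to 1 for genotype in GM, 0 to 2 for genotype in DM3, 0 to 9 for the clones, 0 to 9 for culture in DM3 and 1 to 15 for culture in GM. Where the share of tested genes called in the same fit is not given above, these counts do not set the members apart from other genes.

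The labels do not say what a culture number stands for. Deviations of same-numbered control and tKO libraries correlated at 0.0955 to 0.452 in GM (7 of 8 pairs over 0.1) and -0.224 to 0.558 in DM3 (5 of 8), and those of differently numbered libraries at -0.419 to -0.0558 and -0.456 to 0.338. In GM the signs thus followed the number, a hint from the data of shared deviations. Deviations were taken from each group's own mean, so negative values of differently numbered pairs largely mirror the positive ones and add no separate evidence. Not every pair passed 0.1 in either stage, which the rule for pairing required. The culture number as a replicate block gave 40 members called in control and 40 in tKO cells, and 0 for either genotype comparison and the interaction. The share of tested genes called with that block is not given here, so its counts describe the members only. As a block within each stage it gave 1 for genotype in GM (Cdc25b), 1 for the clones (Kif20a) and 6 for the clones in DM3. Every member had a mean above the filter of 0.5 FPKM. The causes of these changes were not tested.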
